A study of Homo sapiens with 6 samples.

Results

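The osteoblast differentiation genes are a set of 10 genes that mark the path from a mesenchymal stem cell to a bone-forming osteoblast, taken by symbol from the count table: RUNX2, SP7, DLX5, MSX2, ALPL, PTH1R, SPP1, IBSP, BGLAP and SPARC. All 10 were found among its 58735 genes. They were measured in UE7T-9, an established human mesenchymal stem cell line from bone marrow, by non-stranded mRNA-seq of total RNA. There were 3 libraries of control cells, labelled as wild type, and 3 libraries of the SRRM4 KO line, made with a CRISPR guide against SRRM4 delivered by lentivirus, both kept in DMEM. SRRM4 is a splicing factor known from neurons. The KO line was grown from a single cell after selection with puromycin, and the labels give the control cells as WT without saying whether they carried a vector or were selected or cloned, so the effects of cloning, of the vector and of the SRRM4 guide cannot be told apart. The study describes loss of the SRRM4 protein in this line as incomplete. Nothing in the labels says that the libraries of a group came from separate cultures, so p-values measure the spread between these libraries only.

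In bone, RUNX2 acts at the head of the osteoblast programme, and SP7 (osterix) acts after it. The homeodomain factors DLX5 and MSX2 act around them in response to BMP signals. Committed cells carry alkaline phosphatase (ALPL) and the parathyroid hormone receptor (PTH1R), and lay down a matrix rich in type I collagen and SPARC (osteonectin). Bone sialoprotein (IBSP) and osteocalcin (BGLAP) come late, when the matrix mineralizes, while osteopontin (SPP1) is also made by many cells outside bone, macrophages among them.

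The libraries held 21496117 to 23868323 counts, and a count of 0 allows up to 3 counts, which is 0.123 to 0.139 CPM (the count relative to the TMM-scaled size of its library). This limit covers counting error only. In control replicate 1 reads were found on 22403 genes, more than the 20613 and 20674 of replicates 2 and 3, and the members and the pathway genes were also fitted without it. SRRM4 had 0 counts in all 6 libraries, and the knockout could therefore not be checked in the RNA. Of the markers that define mesenchymal stem cells, NT5E and ENG had at least 4065 counts in every library and THY1 had 2675 to 3468 counts in control and 523 to 670 in SRRM4 KO (log2 fold change -2.43). Of the markers that these cells should lack, PTPRC had at most 2 counts and HLA-DRA at most 11, whereas CD34 had 66 to 93 and CD14 had 324 to 392 counts in every library.

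Among the members SPP1 rose, DLX5, ALPL and PTH1R fell, and SP7, IBSP and BGLAP were at or below 3 counts in every library of both groups. To be called, a gene needed both an adjusted p under 0.05 (edgeR) and a log2 fold change past 1 in either direction, in a test of 15341 genes. The filter on low counts left 7 of the 10 members for the test, of which 1 was called higher and 3 lower. Over all tested genes 5.45% were called higher and 7.14% lower. The members and all lists below were chosen with earlier results of these data known, so their shares are no independent measure. RUNX2 and SPARC passed the adjusted p but not the fold change, and MSX2 passed neither. By the adjusted p alone 2 members were higher and 4 lower, while 20.7% and 20.9% of all tested genes were, 41.6% in all. The median log2 fold change of the 7 tested members was -0.84, against -0.01 over all tested genes. In each of the 7 the CPM values of the groups did not overlap, which was so for 51.8% of all tested genes. PTH1R had passed the filter through its control libraries, so a difference in that gene was built into its test. Without control replicate 1 the same number of members was called, 1 higher and 3 lower. Since these are bulk samples, a smaller share of cells with a given RNA and less RNA per cell cannot be told apart.

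**Figure D1:**
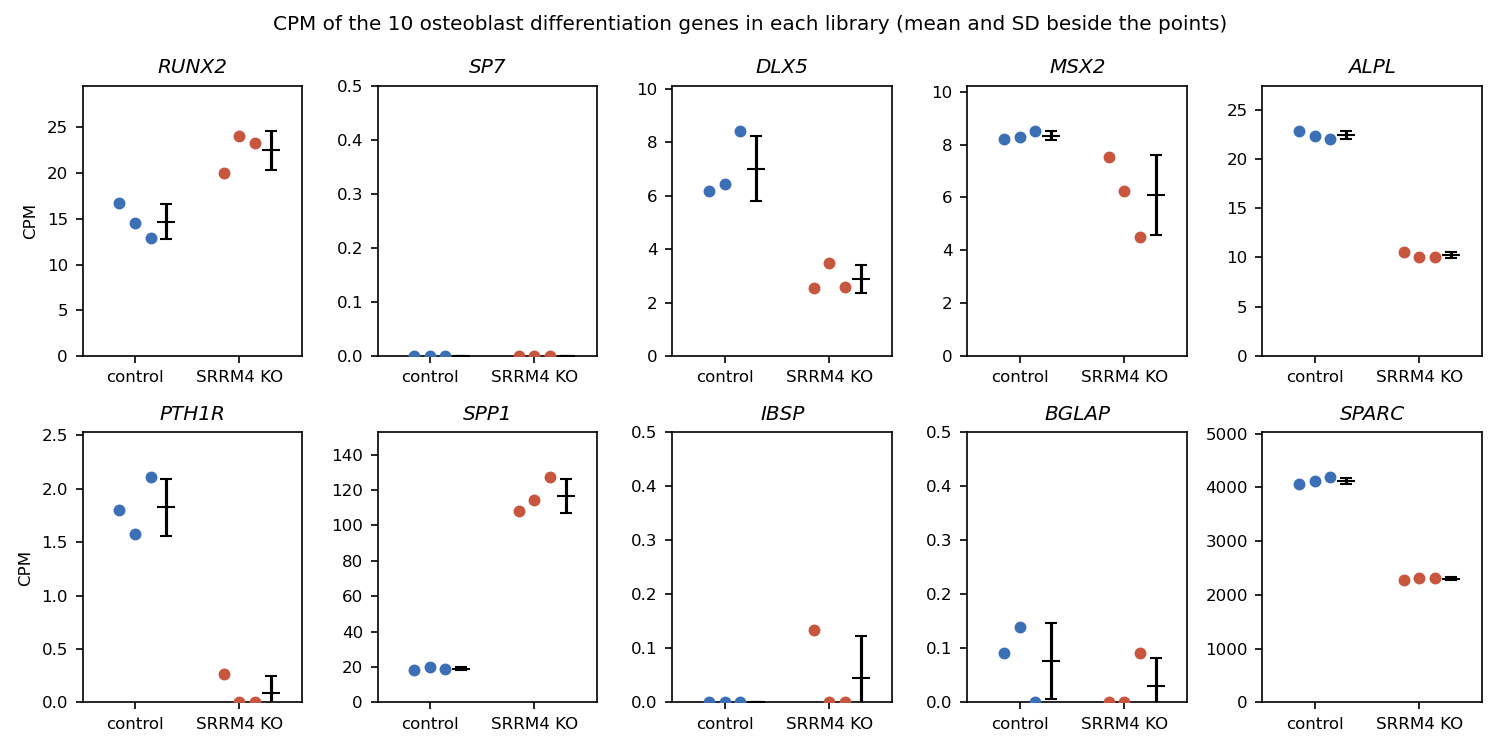
CPM (vertical axis, from 0, a scale of its own in each panel) of the 10 members in the 3 control (blue) and 3 SRRM4 KO libraries (red), with the mean and SD (n = 3) as a black mark beside them. SPP1 sits between 108 and 127 CPM in SRRM4 KO against 18.4 to 19.9 in control, while SP7, IBSP and BGLAP stay at or below 0.139 CPM.

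**Figure D2:**
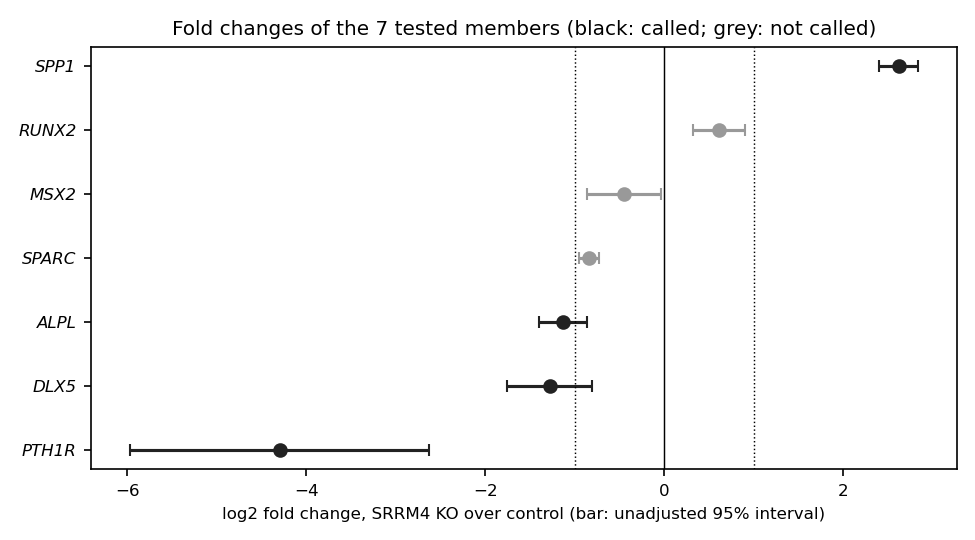
Log2 fold change of SRRM4 KO over control (horizontal axis) for the 7 members that were tested, with its unadjusted 95% interval, and dotted lines at the threshold of 1 in each direction. SPP1 (2.62) lies above the upper line, the intervals of ALPL and DLX5 cross the lower line, and the interval of PTH1R (-5.96 to -2.62) is the widest of the 7.

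RUNX2 (ENSG00000124813), the runt-domain factor that osteoblasts need in order to form, maps to chr6:45328157-45664349 on the plus strand (GRCh38). It had 363, 313 and 287 counts in control replicates 1 to 3 and 447, 587 and 512 in SRRM4 KO replicates 1 to 3. Every SRRM4 KO library was above every control library. Its level went from 14.7 ± 1.95 to 22.5 ± 2.13 CPM (SD, n = 3), and the log2 fold change was 0.61 with a standard error of 0.14 (edgeR, adjusted p = 0.00226). The fold change of 1.53 is under the threshold, and without control replicate 1 the log2 fold change was 0.71. The gene has a pair of promoters with different transcript starts, which counts per gene do not separate. SUPT3H, on the opposite strand, overlaps RUNX2 and had a log2 fold change of 0.62 (adjusted p = 0.0210, edgeR). SUPT3H did not pass the adjusted p without control replicate 3, SRRM4 KO replicate 2 or SRRM4 KO replicate 3 (0.0879, 0.0728 and 0.0781, edgeR). Without strand the reads of the shared stretch cannot be assigned.

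SP7 (ENSG00000170374), the zinc finger factor that follows RUNX2 in bone formation, maps to chr12:53326575-53345315 on the minus strand. It had 0 counts in all 6 libraries, so at this depth no SP7 RNA was detectable in control or SRRM4 KO. The genes beside it were counted in both groups, with AAAS at 29.5 CPM in control and 31.5 in SRRM4 KO, and SP1, another gene of the SP family, at 111 and 106 CPM.

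DLX5 (ENSG00000105880), a homeodomain activator of osteoblast genes, maps to chr7:97020392-97024950 on the minus strand. It had 134, 139 and 188 counts in control and 57, 85 and 57 in SRRM4 KO. The highest SRRM4 KO library, at 3.49 CPM, was below the lowest control library, at 6.18 CPM. The gene fell from 7.02 ± 1.23 to 2.88 ± 0.529 CPM (SD, n = 3), and the log2 fold change was -1.28 with a standard error of 0.22 (edgeR, adjusted p = 0.000274). Tested against a log2 fold change of 1 rather than 0, DLX5 did not pass (glmTreat in edgeR, adjusted p = 0.397), and the value was -1.03 relative to the median gene of chromosome 7. DLX6, its partner gene 9353 bases away on the opposite strand, had 134, 148 and 146 counts in control and 82, 109 and 96 in SRRM4 KO. DLX6 was thus lower as well, with a log2 fold change of -0.64 (adjusted p = 0.0131, edgeR), and was not called. Without SRRM4 KO replicate 1 DLX6 was at -0.57 and did not pass the adjusted p (0.0525, edgeR). SDHAF3, the nearest coding gene on the other side of DLX5, was at 0.16 (adjusted p = 0.518, edgeR).

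MSX2 (ENSG00000120149), a homeodomain factor of skull and limb bone that can repress osteoblast genes, maps to chr5:174724533-174730893 on the plus strand. Control libraries held 178, 179 and 190 of its reads and SRRM4 KO libraries 168, 152 and 99. The control libraries lay close together, at 8.34 ± 0.156 CPM (SD, n = 3), and the SRRM4 KO libraries were spread more widely, at 6.09 ± 1.53 CPM (SD, n = 3). The log2 fold change of -0.45 (standard error 0.20) did not pass (adjusted p = 0.0766, edgeR). The value rests in part on SRRM4 KO replicate 3, without which it was -0.29, and without SRRM4 KO replicate 1 it was -0.64 with an adjusted p of 0.0294 (edgeR).

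The promoters of the members are shown here because RUNX2 is known to bind the letters AACCACA in promoters of bone genes. The set of RefSeq (GRCh38.p14) promoter windows used here held 12 windows for 8 of the members. It held none for DLX5 and SP7, which does not mean that these genes lack a transcript start. AACCACA or its reverse complement TGTGGTT was found in the 250 bases before the transcript start in 3 of the 12 windows, those of SPP1, BGLAP and the upstream start of RUNX2, and in 3.65% of 34943 windows of that length over all genes. The homeodomain motif TAATTA, the same on both strands, was in 2 of the 12, those of MSX2 and of a start of PTH1R, and in 4.35% of all windows. A match describes the letters only and is no measure of binding. Each sequence below is on the plus strand, 5′ to 3′, and ends at the base before the start, with AACCACA in capitals. Counted from the start, the motif begins at base -143 in SPP1 (chr4:87975464-87975713), at -88 in RUNX2 (chr6:45328080-45328329) and at -164 in BGLAP (chr1:156241934-156242183).
SPP1: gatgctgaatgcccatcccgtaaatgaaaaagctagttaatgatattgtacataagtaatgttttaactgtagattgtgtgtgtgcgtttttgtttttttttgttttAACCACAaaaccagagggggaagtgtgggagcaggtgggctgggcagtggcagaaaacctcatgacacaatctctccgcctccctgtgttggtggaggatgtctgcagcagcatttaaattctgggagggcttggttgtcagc
RUNX2: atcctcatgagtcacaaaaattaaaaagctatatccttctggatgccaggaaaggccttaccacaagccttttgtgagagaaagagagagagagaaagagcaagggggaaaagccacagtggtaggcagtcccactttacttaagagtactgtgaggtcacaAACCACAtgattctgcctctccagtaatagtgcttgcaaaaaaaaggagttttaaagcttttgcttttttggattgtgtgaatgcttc
BGLAP: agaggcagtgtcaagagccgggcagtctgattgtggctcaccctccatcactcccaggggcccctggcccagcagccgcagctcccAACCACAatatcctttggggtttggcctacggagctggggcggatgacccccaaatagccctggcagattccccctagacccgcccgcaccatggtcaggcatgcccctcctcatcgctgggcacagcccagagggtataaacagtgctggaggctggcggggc
The genes behind these 3 windows had unlike counts. SPP1 was called higher, RUNX2 was higher without reaching the fold change threshold, and BGLAP was not detected above 3 counts in any library.

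ALPL (ENSG00000162551) encodes tissue-nonspecific alkaline phosphatase, which splits pyrophosphate and so lets bone mineral form. It maps to chr1:21509372-21578412 on the plus strand. It had 495, 481 and 492 counts in control and 235, 244 and 222 in SRRM4 KO. The libraries within each group were close together, with a coefficient of variation of 1.78% in control and 2.82% in SRRM4 KO. ALPL fell from 22.4 ± 0.399 to 10.2 ± 0.288 CPM (SD, n = 3), and the log2 fold change was -1.13 with a standard error of 0.13 (edgeR, adjusted p = 3.54e-06). Leaving out any 1 library gave values from -1.16 to -1.12, and the test against a log2 fold change of 1 did not pass (glmTreat, adjusted p = 0.544). Of the other alkaline phosphatase genes, ALPI had no counts and ALPP had 9 to 33 counts per library, with an adjusted p of 0.226 (edgeR).

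PTH1R (ENSG00000160801), the receptor for parathyroid hormone and its relative PTHLH, maps to chr3:46877746-46903799 on the plus strand. It had 39, 34 and 47 counts in control and 6, 0 and 0 in SRRM4 KO. All 3 control libraries were above 1.57 CPM, and the one SRRM4 KO library with counts was at 0.269 CPM. The fitted log2 fold change was -4.29 with a standard error of 0.78 (edgeR, adjusted p = 0.000416). Over the group sums, 120 counts against 6, the ratio of control to SRRM4 KO was 20.9, with a 95% exact Poisson interval of 9.34 to 58.2 that covers counting error only. Without SRRM4 KO replicate 1 no counts were left in that group, and PTH1R was at least 14.1-fold lower against a limit of 3 counts per library. Without SRRM4 KO replicate 2 the fitted value was -3.71. MYL3, which overlaps PTH1R on the opposite strand, had 15, 2 and 13 counts in the control libraries but none in those of SRRM4 KO, and reads of the shared stretch cannot be told apart without strand. Of its ligands, PTH had no counts and PTHLH had 39 to 54 counts per library (log2 fold change -0.22, not past the adjusted p). GNAS, which encodes the stimulatory G protein that PTH1R acts through, was at 0.06 (adjusted p = 0.470, edgeR). Of the ligands, relatives and response genes of PTH1R, 4 of 7 were tested, with 1 called lower and none higher, where 7.14% and 5.45% of all tested genes were. RGS2, a response gene, was at -0.08 (adjusted p = 0.876, edgeR). NR4A2, a nuclear receptor gene induced by parathyroid hormone in osteoblasts, was lower at -1.12 (adjusted p = 0.0404, edgeR). It lost the call without control replicate 2, without SRRM4 KO replicate 1 and without SRRM4 KO replicate 2, with values of -0.79, -1.03 and -0.85.

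SPP1 (ENSG00000118785) encodes osteopontin, an acidic phosphoprotein that holds cells to mineral through integrins and CD44. It maps to chr4:87975650-87983426 on the plus strand. It had 400, 428 and 419 counts in control and 2416, 2792 and 2796 in SRRM4 KO. The groups were far apart against the spread within them, at 19.0 ± 0.736 and 117 ± 9.48 CPM (SD, n = 3). The log2 fold change of 2.62 (95% interval 2.40 to 2.83) ranked 117 among the rises of the 15341 tested genes (adjusted p = 4.85e-11, edgeR). It lay between 2.54 and 2.66 under every alternative tried and passed in each. SPP1 is part of a run of genes on chromosome 4 that encode acidic matrix proteins of bone and teeth. Of the others in that run, DMP1 and DSPP had no counts in any library, MEPE, the nearest coding gene on one side, had 1 count in all, and IBSP had 3 in all. PKD2, 24242 bases past the other end of SPP1, was lower in SRRM4 KO, with 9691 to 12351 counts in control and 6803 to 7338 in SRRM4 KO (log2 fold change -0.67, adjusted p = 2.71e-05, edgeR). Because macrophages make osteopontin too, their markers were counted beside it. LYZ and MARCO had 0 counts in all libraries, CD68 had at most 1 and MRC1 at most 4, while CD163 had 2 to 6 and CSF1R 11 to 26 counts per library. CSF1R and CD163 made up most of the sum, and the summed level of the 6 macrophage markers ran from 0.672 to 1.153 CPM in control and from 1.00 to 1.44 CPM in SRRM4 KO. CD14, a monocyte and macrophage marker outside that list, was at 16.8 ± 1.07 CPM in control and 15.9 ± 1.11 CPM in SRRM4 KO (SD, n = 3). The part of such cells in the SPP1 result was not tested.

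The receptors of osteopontin and bone sialoprotein were a list of 5 genes, chosen with earlier results of these data known. Of these, 2 were called higher and none lower, where 5.45% of all tested genes were called higher and 7.14% lower. CD44 rose from 147 ± 4.09 to 386 ± 8.69 CPM (SD, n = 3), which is 1.39 as log2 fold change. ITGB3, the beta chain that pairs with the alpha V chain in the main osteopontin integrin, rose from 13.3 ± 0.337 to 56.5 ± 1.503 CPM (SD, n = 3), which is 2.09 as log2 fold change. Its partner ITGAV was at -0.81, past the adjusted p (2.88e-06, edgeR) but not the fold change.

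IBSP (ENSG00000029559), bone sialoprotein, maps to chr4:87799581-87812435 on the plus strand, in the same run as SPP1. It had 0 counts in 5 libraries and 3 in SRRM4 KO replicate 1, which is at the detection limit, so no fold change is given. BGLAP (ENSG00000242252), osteocalcin, is the vitamin K dependent protein that osteoblasts release into blood, and maps to chr1:156241962-156243321 on the plus strand. It had 2, 3 and 0 counts in control and 0, 0 and 2 in SRRM4 KO. Both genes were thus at or under the detection limit in every library, and a difference between the groups was not detectable at this depth. PMF1, the coding gene next to BGLAP, with which it shares a readthrough transcript, had 147 to 255 counts per library, and the readthrough gene PMF1-BGLAP had 1 count in all.

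SPARC (ENSG00000113140), a collagen-binding glycoprotein abundant in bone and in other connective tissues, maps to chr5:151661096-151687165 on the minus strand. It had 87940, 88727 and 93372 counts in control and 50711, 56263 and 51047 in SRRM4 KO. It was among the most abundant RNAs, taking a mean of 0.403% of the counts in control and 0.235% in SRRM4 KO. Its level went from 4119 ± 64.0 to 2302 ± 22.8 CPM (SD, n = 3). The log2 fold change was -0.84 (95% interval -0.95 to -0.72, adjusted p = 1.03e-08, edgeR). The interval lies inside the fold change threshold, so SPARC was lower beyond the spread between libraries without being called. Leaving out any 1 library gave values from -0.85 to -0.83.

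Of the other nearest coding genes, CDC5L beside RUNX2 and SMG5 beside BGLAP each had a log2 fold change of 0.39 (adjusted p = 0.00573 and 0.00129, edgeR). Beside ALPL, NBPF3 was at -0.37 and RAP1GAP, with 2 to 19 counts per library, at -1.46, and neither passed (adjusted p = 0.0651 and 0.0886, edgeR). CCDC12 beside PTH1R, at 0.14, and ATOX1 beside SPARC, at 0.10, did not pass (adjusted p = 0.612 and 0.694, edgeR). FAT2, on the other side of SPARC, had 16, 20 and 2 counts in control and 4, 0 and 0 in SRRM4 KO. CLIC5, NSG2, DRD1 and PRSS42 had at most 2 counts in any library.

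Levels of different genes were compared as CPM per kilobase of merged exons. In control, SPARC came first at 853 ± 13.2 CPM per kilobase (SD, n = 3), followed by SPP1 (8.20 ± 0.317), ALPL (7.45 ± 0.133), DLX5 (4.01 ± 0.701), MSX2 (3.68 ± 0.0685), RUNX2 (1.80 ± 0.238) and PTH1R (0.663 ± 0.0963). Among these neighbours only DLX5 and MSX2 overlapped. In SRRM4 KO the order was SPARC (476 ± 4.73), SPP1 (50.3 ± 4.08), ALPL (3.40 ± 0.0957), RUNX2 (2.74 ± 0.260), MSX2 (2.68 ± 0.672) and DLX5 (1.65 ± 0.303), all in CPM per kilobase (SD, n = 3). MSX2 overlapped both RUNX2 and DLX5 there. The transcription factors therefore changed places, with DLX5 above RUNX2 in each control library and below it in each SRRM4 KO library. SPP1 went from rank 5160 to rank 764 among the 15341 tested genes by level per kilobase, SPARC from rank 13 to rank 34, and ALPL from rank 5535 to rank 8423.

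**Figure D3:**
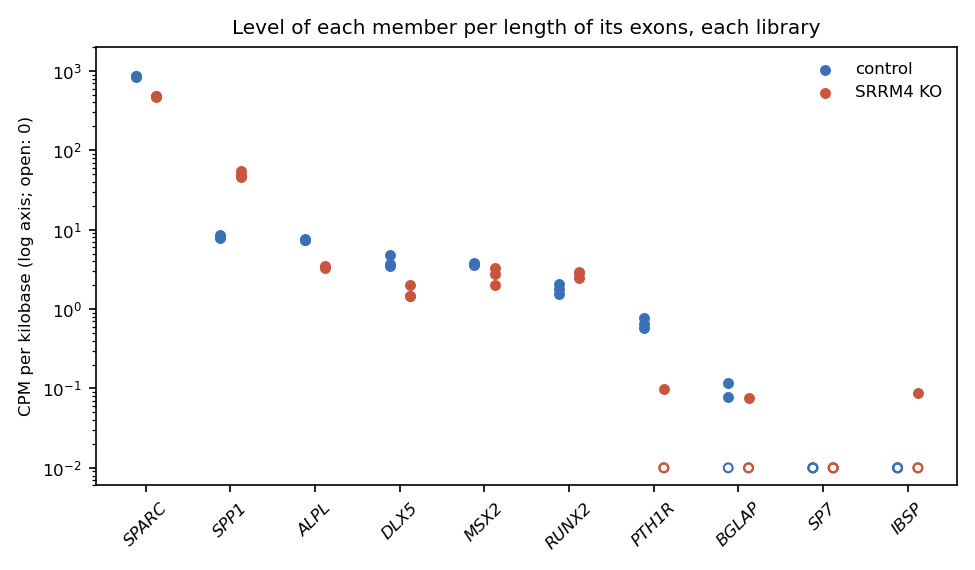
CPM per kilobase of merged exons (vertical log axis) of the 10 members in each control (blue) and SRRM4 KO library (red), in the order of the control means. Open points stand for 0 counts and are drawn at the foot of the axis. SPARC lies at 840 to 866 in control against 7.95 to 8.56 for SPP1, and no library of SP7, IBSP or BGLAP exceeds 0.117.

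Beyond the members, 89 genes of the same pathway were listed by role with earlier results of these data known, of which 74 were tested. The shares called in these lists are therefore no independent measure of the pathway. The test called 4 higher and 19 lower, 5.41% and 25.7% of those tested, with a median log2 fold change of -0.41. Over all tested genes 5.45% were called higher and 7.14% lower, and the median was -0.01, so the share called higher was near that of all genes. The same shares stand as the background of each list that follows, most of which hold few genes. Of the bone matrix proteins 8 of 11 were tested and 7 were called lower, none higher, with a median of -2.26. COL1A1 fell to 11870 ± 864 from 27881 ± 1684 CPM and COL1A2 to 3766 ± 218 from 12196 ± 405 CPM (SD, n = 3), together the chains of type I collagen, the main protein of bone. Summed levels of chondrocyte, skeletal muscle and endothelial markers were lower along with these genes, and a single gene made up most of each sum, while those of adipocyte markers overlapped. The summed level of 6 chondrocyte markers was 146.4 to 162.9 CPM in control and 5.18 to 5.58 CPM in SRRM4 KO, with 1 of the 2 tested called lower, and ACAN (aggrecan) alone was at 147 CPM in control and at 0 counts in SRRM4 KO. The called gene is ACAN, which passed the filter through its control libraries, so a difference was built into its test. Skeletal muscle markers summed to 4.88 to 5.71 and 0.808 to 1.48 CPM, of which MYH3 made up 3.98 and 0.920 CPM on average, and MYOD1 and MYOG had no counts. Endothelial markers summed to 8.81 to 10.3 and 2.87 to 3.77 CPM, of which KDR made up 9.42 and 3.11 CPM on average, and PECAM1 and CDH5 had at most 3 counts in any library. Adipocyte markers summed to 0.184 to 0.696 and 0.287 to 0.363 CPM. Their part in the result was not tested. Of the mineralization and phosphate genes 1 of 8 tested was called lower and none higher. That gene was ANKH, a pyrophosphate transporter gene, which fell from 118 ± 2.94 to 49.4 ± 3.38 CPM (SD, n = 3). By the adjusted p alone 2 were higher and 1 lower, where 20.7% and 20.9% of all tested genes were, and the list median was 0.07. The 2 were SLC20A1 at 0.99 and SLC20A2 at 0.41 (adjusted p = 7.97e-08 and 0.000477, edgeR). SLC20A1 was called higher without control replicate 3 (1.02) and without SRRM4 KO replicate 1 (1.003). Of the osteocyte genes 4 of 6 had at most 1 count in any library and 2 were tested, with 1 called lower and none higher. PDPN (podoplanin) fell from 23.7 ± 1.18 to 7.27 ± 0.987 CPM (SD, n = 3). PHEX, the other tested gene, had 58 to 101 counts per library and a log2 fold change of 0.10 (adjusted p = 0.796, edgeR).

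Among the relatives and partners of the transcription factors, 12 genes were tested, 2 were called lower and none higher. RUNX3, a relative of RUNX2, had 198, 228 and 189 counts in control and 4, 2 and 0 in SRRM4 KO (log2 fold change -6.66, adjusted p = 6.48e-09, edgeR). RUNX1 was at -0.18 and CBFB, the subunit that RUNX proteins bind DNA with, at 0.09, neither past the adjusted p (0.152 and 0.516, edgeR). DLX3, a relative of DLX5, had 27, 50 and 46 counts in control and 3, 10 and 0 in SRRM4 KO (log2 fold change -3.29), and its value was -4.69 without SRRM4 KO replicate 2. Without SRRM4 KO replicate 1 RUNX3 was at -7.60. Like PTH1R, both RUNX3 and DLX3 passed the filter on low counts through their control libraries, so a difference was built into their tests. MSX1, the relative of MSX2, was at 0.41 (adjusted p = 0.0852, edgeR). Of 6 repressors of osteoblast differentiation all were tested, with 2 called lower and none higher. ZNF521 fell from 12.4 ± 1.27 to 3.62 ± 0.426 CPM (SD, n = 3). HDAC4, a histone deacetylase that binds RUNX2, fell from 22.8 ± 1.19 to 10.9 ± 1.72 CPM (SD, n = 3). The log2 fold change of HDAC4 was -0.96, under the threshold, without SRRM4 KO replicate 3.

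The BMP ligands, receptors and SMADs had 11 tested genes, 2 called lower and none higher. SMAD9, which carries BMP signals, fell from 26.8 ± 2.84 to 5.17 ± 0.123 CPM (SD, n = 3), and BMP6, which also passed the filter through its control libraries, had 46, 29 and 33 counts in control and 10, 2 and 17 in SRRM4 KO. Its log2 fold change was -1.93, or -2.64 without SRRM4 KO replicate 3, and it was no longer called without control replicate 1 (adjusted p = 0.0515, edgeR). Of the 8 BMP antagonists and inhibitory SMADs, all tested, 2 were called higher and 3 lower. The secreted antagonists NOG (noggin) and CHRDL1 rose, NOG from 4.29 ± 1.49 to 12.7 ± 1.495 CPM and CHRDL1 from 0.780 ± 0.324 to 7.05 ± 0.971 CPM (SD, n = 3). FST (follistatin) fell from 249 ± 8.49 to 104 ± 4.02 CPM, and SMAD7, which blocks the receptors and is itself switched on by the pathway, from 26.6 ± 3.26 to 11.3 ± 0.648 CPM (SD, n = 3). None of the 8 tested genes of WNT signalling in bone and neither of the 2 tested osteoclast coupling factors was called, and SOST, the sclerostin gene of osteocytes, had no counts. Of the WNT genes 2 were higher and 1 lower by the adjusted p alone, where 20.7% and 20.9% of all tested genes were. These were DKK1 at 0.93 and SFRP1 at 0.56, and LRP5 at -0.41 (adjusted p = 2.45e-06, 0.000716 and 0.00409, edgeR). Without control replicate 1 the pathway genes gave 4 calls higher and 20 lower.

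**Figure D4:**
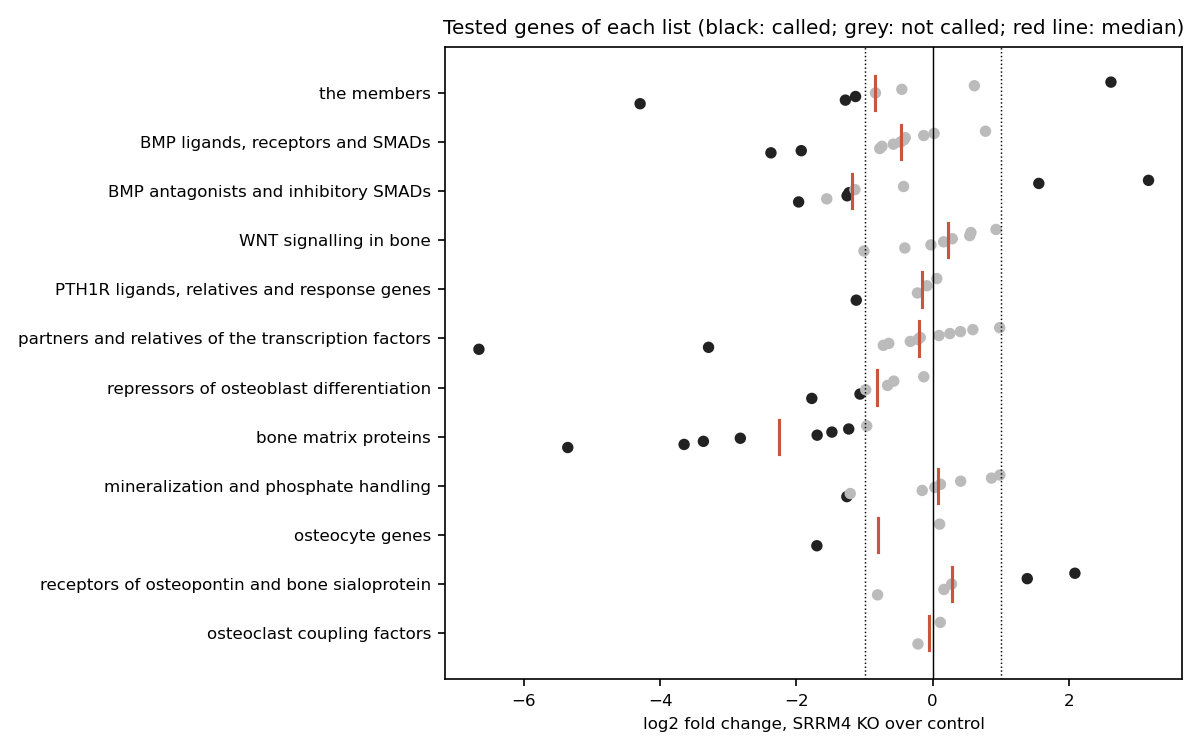
Log2 fold change of SRRM4 KO over control (horizontal axis) of the tested genes of each list and of the 7 tested members (rows), with called genes in black, others in grey and the median of each list as a red line. Points are set apart vertically within a row in order of value. The bone matrix list lies wholly below 0 (8 genes), and the list of osteopontin receptors has 2 called genes above 1.

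The genes whose pattern over the 6 libraries was most like that of a called member were picked by Pearson correlation of log2 CPM among members and pathway genes averaging 100 counts or more. They were CD44 for SPP1 (r = 0.998), BGN (biglycan) for ALPL (r = 0.999) and for PTH1R (r = 0.986), and TWIST1 for DLX5 (r = 0.978). BGN fell from 607 to 14.8 CPM on average (log2 fold change -5.36), and TWIST1 was at -0.98, under the threshold. TWIST1 was called lower without control replicate 1 (-1.12) and without SRRM4 KO replicate 2 (-1.08). All points come from the same 6 libraries in 2 groups, so the difference between groups makes up most of each correlation.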

How the data were processed

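The authors deposited a table of unnormalized whole-number counts by gene for 3 control and 3 SRRM4 KO libraries prepared from total RNA and sequenced without strand on a NovaSeq instrument. The submitters' processing notes name HISAT2 2.0.5, featureCounts 1.5.0-p3 and DESeq2. The genome build is not given in the sources used here. All 58735 gene IDs were found in GENCODE release 29 (GRCh38), 58724 with the same start and end, and the deposited gene lengths of all 10 members equal their merged exons there. How reads of overlapping genes were counted is not stated.

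Counts were normalized by TMM, filtered with filterByExpr and fitted in edgeR 4.0.16 (R 4.3.3). The quasi-likelihood F test was used with a prior count of 0.125, and p-values of the 15341 genes were adjusted by Benjamini-Hochberg. A standard error is the log2 fold change divided by the square root of F. CPM uses TMM-scaled library sizes. With 3 libraries a group, exact permutation could reach p = 0.1 at best. Samples were grouped by their titles. The titles do not say whether their numbers pair the libraries, and the main fit used no pairing. Libraries within a group differed by more than sampling noise (chi-square per degree of freedom from 4.93 to 21.4). The procedure was tested on simulated data.

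The members and the pathway and marker lists were chosen with earlier results of these data known. All members are named. Of each pathway list, at most the 2 called genes of highest CPM in each direction are named, plus relatives and neighbours of members and, for each called member, the pathway gene or member most correlated with it (CD44, BGN and TWIST1). RUNX1, CBFB, MSX1, ITGAV, PTHLH, GNAS, RGS2, ALPP, PTH, ALPI, SOST, SUPT3H, MYL3 and PMF1-BGLAP were named after their values were seen. So were PHEX, SLC20A1, SLC20A2, DKK1, SFRP1 and LRP5. Alternatives were other normalizations and filters, DESeq2 1.42.0, glmTreat, no fold change threshold, a block for the number in the title, leaving out single libraries, coding genes only, and centring by chromosome. Promoter sequences are from RefSeq (GRCh38.p14).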

Additional observations from a re-analysis of the deposited data

How the results depend on the processing

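The 7 tested members were compared with the main fit under 111 combinations of member and alternative. Under glmTreat and with no fold change threshold the log2 fold change is that of the main fit, so its direction could not change. Centring by chromosome shifted that value and kept its adjusted p. None of the 111 values changed direction. In 107 whether the member was called, by adjusted p and fold change together, was the same. The adjusted p alone could still cross 0.05 there, as for MSX2 without SRRM4 KO replicate 1 and for RUNX2 and SPARC in the test against a log2 fold change of 1. The member counts of 1 higher and 3 lower were the same under both other normalizations, no filter, DESeq2, coding genes only and centring by chromosome, and with each library left out (1 to 1 higher and 3 to 3 lower). The test against the fold change threshold itself (glmTreat) left 1 member lower, PTH1R, since DLX5 and ALPL did not pass it, and called 360 genes higher and 577 lower over all genes. With no fold change threshold, 2 members were higher (SPP1 and RUNX2) and 4 lower, as were 12 and 34 pathway genes and 3171 and 3213 of all genes. With libraries left out, the pathway genes gave 4 to 6 calls higher and 19 to 20 lower, and all genes 791 to 875 higher and 1029 to 1162 lower. With the requirement of at least 10 counts in every library PTH1R could not be tested, which left 1 member higher and 2 lower.

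The replicate numbers of the titles were also fitted as a replicate block. This gave 1 member higher and 3 lower, 4 and 20 pathway genes, and 842 and 1093 genes in all, and changed no call of a member. Same-numbered libraries did not deviate together (Pearson correlation of deviations from the group means -0.086, 0.109 and -0.102), so the numbers were not taken as pairs. Depth limits what can be said of SP7, IBSP and BGLAP, and of PTH1R in SRRM4 KO, where 6 counts in 1 library were all that was seen.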
